A study of Mus musculus with 6 samples.

Results

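The Schlafen genes are a family of growth and interferon response genes that lie side by side on mouse chromosome 11. The 7 genes described here are Slfn1, Slfn2, Slfn3, Slfn4, Slfn5, Slfn8 and Slfn9, out of 21887 protein-coding genes on the main chromosomes. Counted for them were H3K4me3 regions that overlapped the gene body or the 5 kb on either side of it (GRCm38). These were 15 of 46565 regions called in Atg5 knockout cells and 16 of 48546 regions called in wild-type cells. H3K4me3, trimethylation of lysine 4 of histone H3, is a chromatin mark that sits where active genes begin, and it usually spreads further into genes that define a cell's identity.

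The cells were CD8+ lymphocytes that had entered e0771 tumours, a mouse mammary tumour line, in C57BL/6 mice. The knockout mice, Atg5-/- (KO), carried a deletion of Atg5 made by Cre recombinase, and the others were wild type. Atg5 is needed to build autophagosomes. Chromatin was cut with MNase, a nuclease that cuts between nucleosomes, before precipitation. The labels name neither the promoter that drives Cre nor the age of the mice, and say nothing of pooling. Each genotype had 1 H3K4me3 library, so no difference below has a replicate check and none was tested. H3K27me3 and input samples of the series were not analysed here.

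Schlafen proteins take their name from the German word for sleep, after early work in mouse thymocytes in which Slfn1 slowed growth. The short members Slfn1 and Slfn2 consist of little more than the core Schlafen domain, and Slfn2 is needed in mice to keep T cells and monocytes quiescent. The intermediate members Slfn3 and Slfn4 carry an added middle domain, and the long members Slfn5, Slfn8 and Slfn9 end in a helicase-like domain. Type I interferon raises many members of the family in mouse cells.

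Both libraries were first set against markers of the labelled cells. Regions within 2.5 kb of the start covered 56675 bp in the knockout list and 9145 bp in the wild-type list, summed over 13 T cell identity genes with an annotated start, of 20 listed. All 13 had a region within 1 kb of the start in the knockout list, against 5 in the wild-type list. In the wild-type list Cd8a, Cd3e, Bcl11b, Lat, Ubash3a and Zap70 had no region within 2.5 kb, whereas none of the 13 was at 0 in the knockout list. The wild-type library thus went against its label at defining T cell markers. Macrophage and granulocyte markers summed to 10317 bp in the knockout list and 15902 bp in the wild-type list over 11 genes with a start, of 16 listed. Fcgr1, Mrc1 and S100a9 were at 0 in the knockout list, and only S100a9 of the 11 in the wild-type list. The start of Atg5 was covered over 2705 bp in the knockout list and 2926 bp in the wild-type list. Since the deleted stretch of Atg5 is unnamed, this region is no check of the labels. The part that these T cell and myeloid values have in any Schlafen value was not tested, and with 1 library per genotype no difference can be given without the wild-type library. In bulk chromatin, fewer cells with the mark and less of the mark per cell cannot be told apart.

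The starts of 5 members are printed. Over the gene body plus 5 kb, Slfn1, Slfn2 and Slfn8 were longer in knockout cells by at least 1000 bp and Slfn4 shorter by as much. The promoter window of Slfn9 is a close copy of that of Slfn8. The bases printed for Slfn2, Slfn8 and Slfn9 lay wholly under regions in both lists, so the length differences there lie outside them. Each run covers 250 bases before and 50 bases from the annotated start, 5′ to 3′ on the strand of the gene (RefSeq, GRCm38.p6). Capitals mark 2 motifs that were searched on both strands. The first is GAAANNGAAA, the core of the interferon-stimulated response element, which 3.44% of 32851 promoter windows of this length held. The second is ACTTCCTGG, the longest run that the windows of Slfn1, Slfn2, Slfn3 and Slfn4 all share, found in 0.843% of the windows. On the other strand it holds GGAA, the core letters of ETS factor sites.
Slfn1, chr11:83116570-83116869, plus strand: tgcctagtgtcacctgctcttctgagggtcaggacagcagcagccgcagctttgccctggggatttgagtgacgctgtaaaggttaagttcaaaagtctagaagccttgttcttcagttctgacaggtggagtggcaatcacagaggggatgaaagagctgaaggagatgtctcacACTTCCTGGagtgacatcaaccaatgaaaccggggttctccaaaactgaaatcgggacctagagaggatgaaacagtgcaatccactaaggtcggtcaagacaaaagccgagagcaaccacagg
Slfn2, chr11:83064862-83065161, plus strand: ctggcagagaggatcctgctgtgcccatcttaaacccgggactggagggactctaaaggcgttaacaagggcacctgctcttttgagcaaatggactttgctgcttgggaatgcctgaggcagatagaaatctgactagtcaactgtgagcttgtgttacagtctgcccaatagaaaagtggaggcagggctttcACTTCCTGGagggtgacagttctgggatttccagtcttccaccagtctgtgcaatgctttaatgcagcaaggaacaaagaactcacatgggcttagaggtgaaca
Slfn4, chr11:83174936-83175235, plus strand: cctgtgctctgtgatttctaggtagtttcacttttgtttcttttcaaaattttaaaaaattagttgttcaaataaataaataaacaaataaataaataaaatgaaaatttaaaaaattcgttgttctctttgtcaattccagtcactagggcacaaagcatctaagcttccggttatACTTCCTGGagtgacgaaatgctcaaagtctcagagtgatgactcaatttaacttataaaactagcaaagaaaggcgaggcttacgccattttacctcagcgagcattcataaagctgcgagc
Slfn8, chr11:83020761-83021060, minus strand: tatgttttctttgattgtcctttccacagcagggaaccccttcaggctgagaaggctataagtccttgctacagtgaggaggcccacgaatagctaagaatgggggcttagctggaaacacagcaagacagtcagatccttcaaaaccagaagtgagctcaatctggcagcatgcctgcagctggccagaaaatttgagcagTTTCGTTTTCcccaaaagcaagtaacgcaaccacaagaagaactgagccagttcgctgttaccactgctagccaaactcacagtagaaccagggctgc
Slfn9, chr11:82991781-82992080, minus strand: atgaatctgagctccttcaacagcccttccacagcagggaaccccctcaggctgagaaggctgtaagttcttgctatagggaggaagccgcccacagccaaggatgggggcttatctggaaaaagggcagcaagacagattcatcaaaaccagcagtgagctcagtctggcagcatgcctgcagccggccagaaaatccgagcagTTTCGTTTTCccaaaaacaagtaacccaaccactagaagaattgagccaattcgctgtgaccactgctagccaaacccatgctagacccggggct

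The ETS-like run was chosen because all short and intermediate members share it, so its presence there is no result. It was in none of the 3 long members, but only 0.843% of all windows held it, so this absence is no result either. Counted from the start, the run began at −74 in Slfn1, −55 in Slfn2, −42 in Slfn3 and −73 in Slfn4. The interferon element core was in all 3 long members and in none of the other 4. Only 3.44% of all windows held it, so its absence from those 4 is no result. The windows of Slfn8 and Slfn9 are close copies and not separate observations. The core began at −45 in Slfn9 and at −155 in Slfn5. In Slfn8 it began at −48 from the start printed (83020810) or −136 from the other annotated one (83020722), from which Slfn8 distances are counted. A search for TTCNNNGAA, the gamma-activated site, found no match in any member window. Only 8.3% of all windows held it, so this absence is no result either. The Slfn8 and Slfn9 windows were 80.8% identical in alignment, with a longest identical run of 20 bp, while every other pair lay between 46.8 and 53.0%. The member windows held 2 to 7 CpG dinucleotides, against a median of 7 over all windows. These matches describe letters only. Of the 300 bases of each window, regions covered all in both lists at Slfn2, Slfn3, Slfn5, Slfn8 and Slfn9. At Slfn1 they covered 300 bases in the knockout list and 47 in the wild-type list, and at Slfn4 they covered 0 in the knockout list and 25 in the wild-type list.

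Summed over the family, more bases lay under regions in the knockout list. The 7 windows of gene body plus 5 kb merge into 5 blocks of 160569 bp, and regions covered 35505 bp (22.11%) of them in the knockout list against 26881 bp (16.74%) in the wild-type list. That ratio is 1.321, beside 1.026 for all regions of the main chromosomes, which include those far from genes. The spread of this ratio over other sets of gene windows was not counted. Covered length was longer in the knockout list at Slfn1, Slfn2, Slfn5 and Slfn8 and shorter at Slfn3, Slfn4 and Slfn9. Among 16415 protein-coding genes with any covered base in such a window, 46.7% were longer in the knockout list, so 4 of 7 is near the background. The median difference was 946 bp over the members and −50 bp over those genes.

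**Figure D1:**
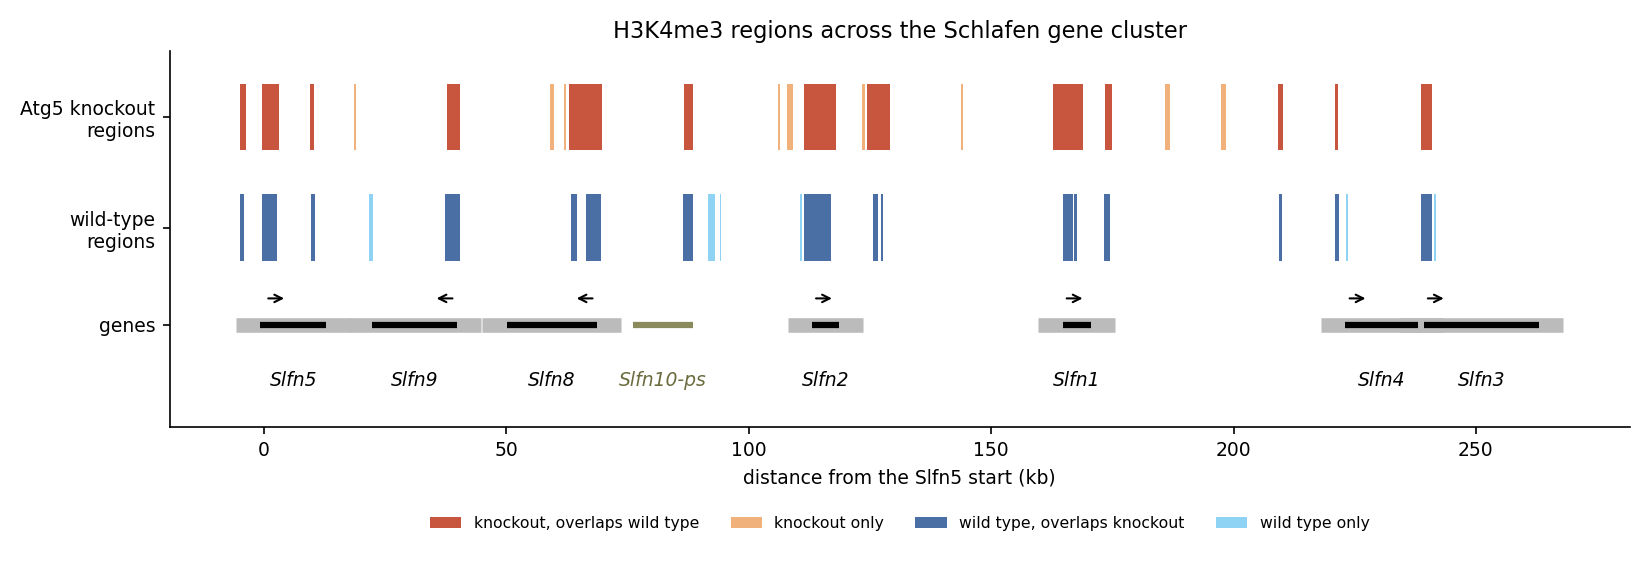
Map of H3K4me3 regions across the Schlafen cluster, with distance from the Slfn5 start in kb on the x axis, knockout regions above wild-type regions and gene bodies (black, with the gray 5 kb windows and an arrow for direction) at the bottom. Dark bars overlap a region of the other list and light bars do not; the wide knockout bars at Slfn8, Slfn2 and Slfn1 (6936, 6609 and 6181 bp) stand out.

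Differences of at least 1000 bp were used to call a gene longer or shorter. By this measure Slfn1, Slfn2 and Slfn8 were longer in the knockout list, 3 of 7 members beside 17.5% of all covered genes. Slfn4 was shorter by at least 1000 bp, 1 of 7 beside 13.6%. That call depends on the regions at the Slfn3 start, which lie in the Slfn4 window. The Slfn4 difference was −735 bp within 2.5 kb of its own start and −457 bp over the gene body. Of 7 other settings the Slfn4 difference passed 1000 bp only with 10 kb around the gene, and in the other 6 it lay between −848 and 318 bp. Slfn9, at −670 bp here, was at −1100 bp with 1 kb around the gene, with a −log10 q of at least 10 and with regions of at least 500 bp. The windows of Slfn3 and Slfn4 overlap, and 1 knockout region and 2 wild-type regions lie in both, so these genes are not separate observations. Within 2.5 kb of the start only Slfn1 was longer by at least 1000 bp, beside 6.39% of 11582 covered starts, and no member was shorter by as much, beside 1.74%. There Slfn1 and Slfn8 were the only members longer at all, 2 of 7 beside 46.9%, and the median difference was −263 bp over the members and −14 bp over all covered starts. At Slfn2 and Slfn8 most of the added length therefore lay more than 2.5 kb from the start. At Slfn2 and Slfn5 the 2.5 kb past the start was covered in full in both lists. A longer knockout reach into these genes could thus not count in the start measure.

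**Figure D2:**
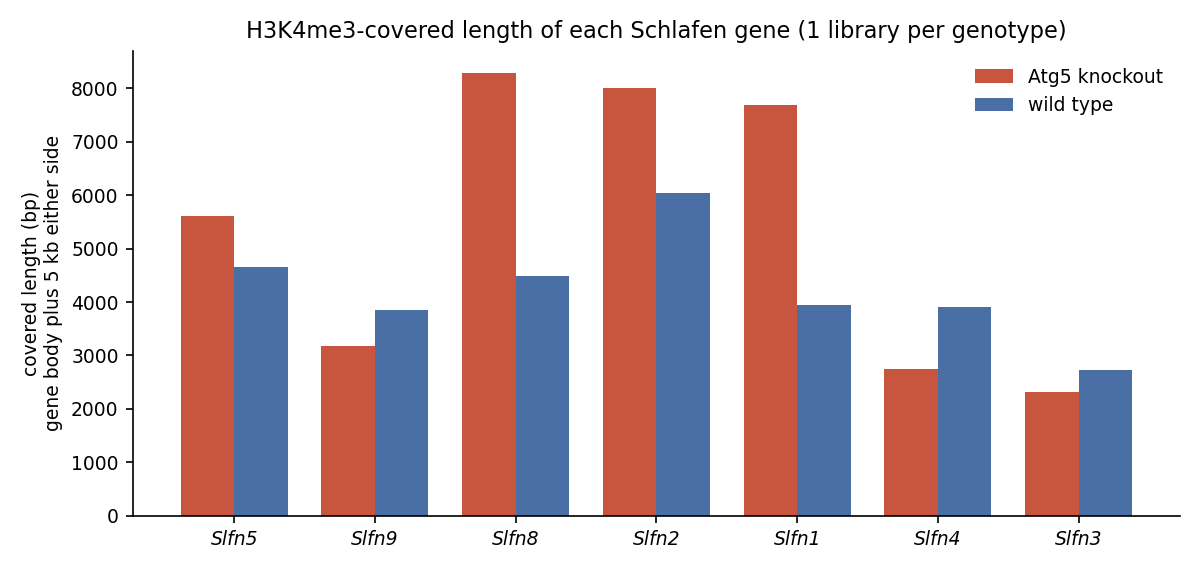
Covered length in bp on the y axis for each Schlafen gene, in genome order, within the gene body plus 5 kb on either side; red bars are the knockout library and blue bars the wild-type library, with 1 library each and no error bars. Slfn8, Slfn2 and Slfn1 reach 8290, 7999 and 7681 bp in knockout cells and 4488, 6036 and 3946 bp in wild-type cells.

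Slfn1, the founding member, showed the most marked difference of the family at its start. The gene spans chr11:83116820-83122670 on the plus strand. In the knockout list 1 region of 6181 bp (83114816 to 83120996) ran from 2004 bp before the start to 4176 bp past it and lay over 71.4% of the gene. In the wild-type list the first region began 3 bp past the start and was 2085 bp wide (83116823 to 83118907), and a second of 648 bp followed it. No wild-type region covered the 2.5 kb upstream, where the knockout list had 2004 bp. Within 2.5 kb of the start 4505 bp were covered in the knockout list and 2176 bp in the wild-type list, a difference of 2329 bp.

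The peak of the Slfn1 signal lay close to the same place in both lists. The summit of the region was 1576 bp past the start in the knockout list and 1563 bp past it in the wild-type list. Folds given here are the enrichment values of the authors' peak caller, and they only place a region within its own list. The knockout region had a fold of 30.3, equal to or above that of 84.5% of its list. The wider wild-type region had a fold of 8.32, equal to or above that of 52.0% of its list. A further region past the 3′ end of Slfn1 was present in both lists, with 1500 bp and a fold of 11.1 in the knockout list against 1213 bp and a fold of 4.16 in the wild-type list. Over the gene body plus 5 kb, Slfn1 had 7681 bp covered in the knockout list and 3946 bp in the wild-type list. Gm51911, a long noncoding RNA on the minus strand, spans 83114727 to 83120574 and starts at 83120574, inside the knockout region. ChIP has no strand, so the mark of these overlapping genes cannot be told apart. With only the 20000 regions of lowest q in each list, Slfn1 had no wild-type region and the difference was 7681 bp. T cell identity genes also had more covered length in knockout cells; their part in the values of Slfn1, Slfn2 and Slfn8 was not tested.

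Slfn2, the quiescence gene, carried a broad region in both lists. The gene spans chr11:83065112-83070678 on the plus strand. Its main region was 6609 bp wide in the knockout list (83063497 to 83070105) and 5552 bp in the wild-type list (83063469 to 83069020), each at least as wide as 98.9% of its own list. Upstream reach was similar, 1615 bp in knockout cells, against 1643 bp in wild-type cells, with the summit 267 bp past the start in the knockout list and 260 bp past it in the wild-type list. The main region had a fold of 40.1 in the knockout list, equal to or above that of 93.4% of its list. In the wild-type list its fold was 24.2, equal to or above that of 80.9% of its list. The difference in extent lay at the downstream edge, which was 4993 bp past the start in the knockout list and 3908 bp in the wild-type list. The region thus lay over 89.7% of the gene in knockout cells and 70.2% in wild-type cells. A wild-type region of 484 bp further upstream had no match in the knockout list, which left 4116 bp within 2.5 kb of the start in knockout cells against 4628 bp in wild-type cells. Gm20234, a noncoding gene on the minus strand (83065741 to 83067700), lies wholly inside the Slfn2 region.

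Beyond Slfn2 the knockout list held further regions. Regions of 1237 bp upstream (fold 4.06) and 711 bp downstream (fold 3.40) were in the knockout list only, and each crossed an edge of the window. Just outside it, 873 bp past its edge, lay a knockout region of 4602 bp (83076551 to 83081152) with a fold of 15.8. Wild-type regions of 1102 and 349 bp, with folds of 7.80 and 3.38, overlapped 31.5% of it. Over the gene body plus 5 kb Slfn2 had 7999 bp in the knockout list and 6036 bp in the wild-type list. The difference of 1963 bp became 5571 bp with 10 kb on either side; the wider window takes in most of the 4602 bp region and other regions.

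**Figure D3:**
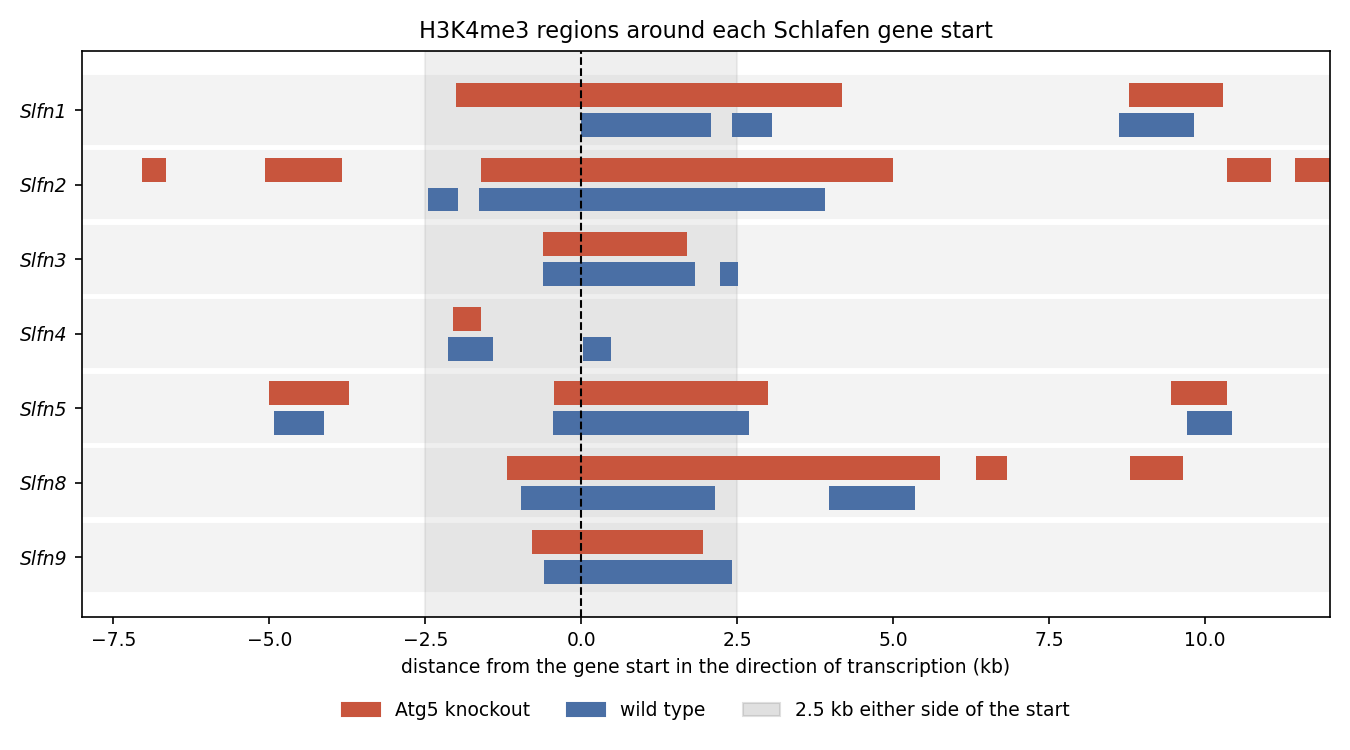
Regions around each Schlafen start, with distance from the start in kb in the direction of transcription on the x axis and, for each gene, the knockout (red) above the wild type (blue); the gray band is 2.5 kb on either side. At Slfn1 the knockout region extends 2004 bp upstream where the wild type has none, while at Slfn3, Slfn5 and Slfn9 the main regions nearly coincide.

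Slfn3 and Slfn4, the intermediate members, had less covered length in knockout cells. Slfn3, at chr11:83191330-83215154 on the plus strand, has been studied in rodent gut epithelium, where it takes part in enterocyte differentiation in the rat. Its start at 83191330 lay in a knockout region of 2311 bp and a wild-type region of 2437 bp that began at the same base, 83190710. Their folds were 33.5 in the knockout list and 32.8 in the wild-type list. These were equal to or above those of 87.5% of the knockout list and 91.1% of the wild-type list. The summits lay 148 bp past the start in the knockout list and 172 bp past it in the wild-type list. A small wild-type region of 291 bp with a fold of 3.12 followed and had no knockout match. Within 2.5 kb of the start 2311 bp were covered in knockout cells and 2711 bp in wild-type cells. Just outside the far edge of its window, broad regions stood in both lists, of 4028 bp with a fold of 45.3 in the knockout list (2790 bp beyond) and of 4188 bp with a fold of 34.9 in the wild-type list (2664 bp beyond).

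Slfn4, which is known from maturing mouse macrophages, had the weakest start of the family. The gene spans chr11:83175172-83190216 on the plus strand. A wild-type region of 457 bp (83175211 to 83175667), with a fold of 3.64, began 25 bp past the start, and the knockout list had no region within 1 kb. Of 11157 starts with a region within 1 kb in either list, 2.24% had one only in wild-type cells, and 4.91% only in knockout cells. A second weak region further upstream was in both lists, with 444 bp in knockout cells, against 722 bp in wild-type cells. Within 2.5 kb of the Slfn4 start 444 bp were covered in the knockout list against 1179 bp in the wild-type list. The difference over the gene body plus 5 kb, which takes in the regions at the Slfn3 start, was −1152 bp. It was 318 bp with regions of a −log10 q of at least 5, which drops both of these wild-type regions and the 291 bp one but keeps the upstream knockout region. Macrophage and granulocyte genes also had less covered length at their starts in knockout cells, with 7 of 11 shorter and 3 longer. Over all covered starts 46.9% were longer. Of the 11 genes 2 were shorter by at least 1000 bp, beside 1.74% of all covered starts. Longer by as much were 0 of 11, beside 6.39%. The part of these markers in the Slfn4 value was not tested.

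The long members differed from each other. Slfn8, which slowed T cell growth when overexpressed in mice, spans chr11:83002125-83020810 on the minus strand. Its start lay in a knockout region of 6936 bp (83014974 to 83021909), at least as wide as 99.0% of that list. The wild-type list had a region of 3111 bp at the start and a separate one of 1377 bp deeper in the gene, and the knockout region overlapped both. The start region reached 1187 bp upstream and 5748 bp into the gene in knockout cells, against 967 bp upstream and 2143 bp into the gene in wild-type cells. Its authors' folds were 19.7 in the knockout list and 13.5 in the wild-type list, equal to or above those of 75.8% and 66.8% of these lists. Further into the gene, regions of 501 and 853 bp were in the knockout list only, with folds of 3.87 and 7.74. Slfn8 had 8290 bp covered in the knockout list and 4488 bp in the wild-type list over the gene body plus 5 kb, the largest difference of the family at 3802 bp. Of this, 577 bp lay within 2.5 kb of the start (3688 bp in knockout cells, against 3111 bp in wild-type cells).

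Slfn9, the neighbour of Slfn8 with the similar promoter, had less covered length in knockout cells. The gene spans chr11:82974316-82991830 on the minus strand. Its start lay in regions of 2742 bp in the knockout list and 3005 bp in the wild-type list. Their folds were 35.4 for the knockout region and 35.9 for the wild-type region. These were equal to or above those of 89.2% of the knockout list and 94.0% of the wild-type list. Within 2.5 kb of the start 2742 bp were covered in knockout cells and 3005 bp in wild-type cells. Each list had 1 small region near Slfn9 that the other lacked. The knockout one, of 430 bp (82970697 to 82971126), lay past the 3′ end of the gene, and the wild-type one, of 837 bp (82973645 to 82974481), overlapped that end. Over the gene body plus 5 kb 3172 bp were covered in the knockout list and 3842 bp in the wild-type list. The promoter windows of Slfn8 and Slfn9 are similar, and the sequence of Slfn10-ps was not compared with them. No source used here gives the read length or the handling of reads that match several places. Whether reads were divided between these genes was not tested.

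Slfn5, an interferon-induced nuclear member, was nearly the same in both lists at its start. The gene spans chr11:82951349-82964850 on the plus strand, and the annotated start used is 82952102. Regions of 3436 bp in the knockout list and 3142 bp in the wild-type list covered it. Their folds were 24.9 for the knockout region and 16.1 for the wild-type region. These were equal to or above those of 80.2% of the knockout list and 71.1% of the wild-type list. Within 2.5 kb of the start 2940 bp were covered in knockout cells and 2960 bp in wild-type cells. Regions upstream and inside the gene were in both lists. The upstream one was 1274 bp wide in knockout cells, against 807 bp in wild-type cells, and the inner one was 898 bp wide in knockout cells, against 713 bp in wild-type cells. Over the gene body plus 5 kb Slfn5 had 5608 bp in the knockout list and 4662 bp in the wild-type list. The noncoding Slfn5os runs through the same stretch on the minus strand from 82960681.

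**Figure D4:**
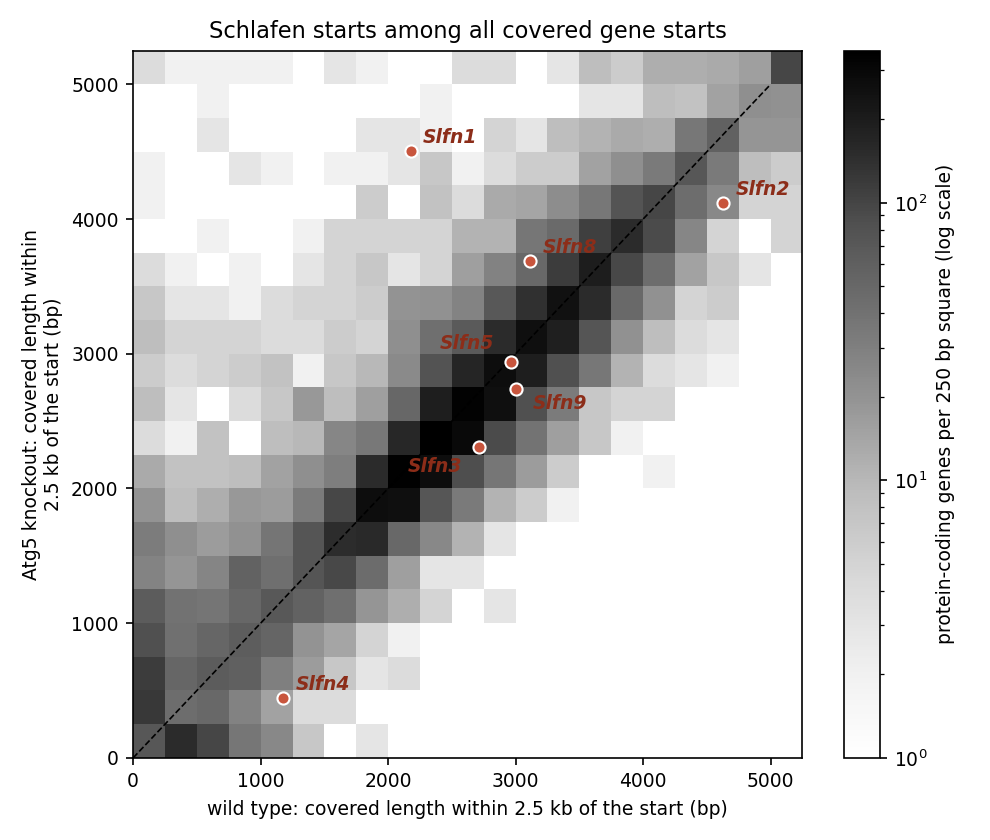
Covered length within 2.5 kb of the start in bp, wild type on the x axis and knockout on the y axis; gray squares count 11582 protein-coding starts covered in either list on a log scale, red points are the Schlafen genes and the dashed line marks equal lengths. Slfn1 (4505 bp in knockout cells, 2176 bp in wild-type cells) lies well above the line, and the other members run from −735 bp at Slfn4 to 577 bp at Slfn8.

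The regions of highest fold in each list overlapped one of the other list, and those in 1 list only had folds in the lower part of the range. Of the 15 knockout regions 10 overlapped a wild-type region, and of the 16 wild-type regions 12 overlapped a knockout region. Over all regions these shares were 76.0% of the knockout list and 73.3% of the wild-type list, so the members' counts are near the background. The 5 knockout-only regions were 430 to 1237 bp wide with folds of 3.40 to 7.74, whereas the shared ones had folds of 4.42 to 40.1. The 4 wild-type-only regions were 291 to 837 bp wide with folds of 3.12 to 6.24, and the shared ones had folds of 3.38 to 35.9. None of these list-specific regions covered a Schlafen start. The start base itself lay under a region for 6 of 7 members in the knockout list, all but Slfn4. In the wild-type list it did for 5 of 7, all but Slfn1 and Slfn4, where regions began 3 and 25 bp past the start. No share over all starts was counted for this single base, so these counts are no result. Within 1 kb of the start, 6 of 7 members had a region in the knockout list and 7 of 7 in the wild-type list.

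Summed over the stretches between the member windows, covered length was also longer in knockout cells. The stretch between Slfn8 and Slfn2 went the other way. From the first to the last window (82946349 to 83220154) regions covered 46313 bp in the knockout list and 32765 bp in the wild-type list. Outside the windows the knockout list held 7 regions, 3 of them shared, and the wild-type list 6, of which 4 were shared. Slfn10-ps, annotated as a noncoding gene between Slfn8 and Slfn2, had a region at its higher-coordinate end in both lists. It was 1972 bp wide in knockout cells and 2141 bp in wild-type cells. Wild-type regions of 1311 and 390 bp between Slfn10-ps and Slfn2, with folds of 8.06 and 4.16, had no knockout match. The knockout list had a region of 373 bp there, with a fold of 6.36 and no wild-type match. The edge of its 1237 bp region upstream of Slfn2 also lay in that stretch. Between Slfn1 and Slfn4 regions of 933 and 885 bp were in the knockout list only, with folds of 8.02 and 6.36.

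None of the 7 flanking coding genes reported here differed by 1000 bp. Of all covered genes 17.5% were longer in the knockout list by at least 1000 bp and 13.6% shorter by as much, so this absence is no result. Unc45b, Nle1, Fndc8 and Rad51d on the side of Slfn5 had differences of 420, −226, −521 and −532 bp over the gene body plus 5 kb, knockout minus wild type; the Unc45b window shares a region with that of Slfn5. On the side of Slfn3 the differences were 378 bp at Slfn14, 198 bp at Ap2b1 and −566 bp at Rasl10b. Slfn14, which acts in platelets and red cells, had 0 bp in both lists within 2.5 kb of its start. Slfnl1, a gene with a Schlafen-like name on chromosome 4, had 0 bp in both lists over its whole window. The start values most like those of Slfn1, by straight-line distance over the 2 lists, were at Herc3 (4393 bp in knockout cells, against 2079 bp in wild-type cells), Arhgap27 (4451 bp in knockout and 2036 bp in wild-type cells) and Pcdh7 (4661 bp in knockout and 2167 bp in wild-type cells).

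Genes of the interferon pathway, which controls many Schlafen genes, were set beside the family at their starts. Of 11 receptor and signalling genes with a start, of 12 listed, all had a region within 1 kb in both lists, and 9 were longer and 2 shorter in knockout cells, with a median of 299 bp and none past 1000 bp. Over all covered starts 46.9% were longer in the knockout list, 6.39% by at least 1000 bp, and 1.74% were shorter by as much. These shares stand beside the counts of every list here. Tyk2, a kinase bound to the type I receptor, had 3018 bp in knockout cells, against 2286 bp in wild-type cells. The factor gene Irf7 had 3146 bp in knockout cells, against 2479 bp in wild-type cells, Irf9 had 4077 bp in knockout and 3732 bp in wild-type cells, and the receptor gene Ifnar1 had 3557 bp in knockout and 3227 bp in wild-type cells. Among 25 interferon response genes with a start, of 32 listed, 13 were longer and 10 shorter, with a median of 14 bp, 2 longer by at least 1000 bp and 1 shorter by as much. Those 2 were Trim30a, with 4059 bp in knockout cells, against 2361 bp in wild-type cells, and Ddx58, the RNA sensor RIG-I, with 3355 bp in knockout and 2323 bp in wild-type cells. Oas1a, an RNA-activated synthetase, had 2113 bp in knockout cells, against 3666 bp in wild-type cells, and Ifi44 had 1997 bp in knockout and 2958 bp in wild-type cells.

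Quiescence genes of T cells showed no common direction. Of 13 with a start, of 16 listed, 7 were longer and 6 shorter in the knockout list, with a median of 7 bp. Il7r, the receptor that conveys survival signals to resting T cells, had 3792 bp in knockout cells, against 1484 bp in wild-type cells. Cdkn1b, the cell cycle inhibitor p27, had 5001 bp in knockout and 3745 bp in wild-type cells, the antiproliferative gene Tob1 had 3560 bp in knockout and 4497 bp in wild-type cells, and the growth brake Tsc1 had 2856 bp in knockout and 3423 bp in wild-type cells. T cell identity genes had a median of 3968 bp and were longer for all 13. Zap70 and Bcl11b had 5001 bp in knockout cells, against 0 bp in wild-type cells, Ubash3a had 4577 bp in knockout and 0 bp in wild-type cells, and Cd8a 4386 bp in knockout and 0 bp in wild-type cells. The Slfn1 difference of 2329 bp lay below that median, as did those of the other members, but the measure fixed this. At most 5001 bp can be covered within 2.5 kb of a start. Wild-type cover at the Schlafen starts ran from 1179 bp at Slfn4 to 4628 bp at Slfn2, too much for any of them to gain 3968 bp.

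Markers of other cells were compared in the same way. Macrophage and granulocyte genes had a median of −549 bp, with Clec7a at 609 bp in knockout cells, against 2037 bp in wild-type cells, Mrc1 at 0 bp in knockout and 1293 bp in wild-type cells, Itgax at 632 bp in knockout and 1620 bp in wild-type cells and Fcgr1 at 0 bp in knockout and 696 bp in wild-type cells. Of 8 NK cell genes (of 10 listed) 5 were longer and 1 shorter, with a median of 190.5 bp and sums of 12777 bp in knockout cells, against 4913 bp in wild-type cells. CD8 T cells also use Eomes and Klrk1. Eomes had 4383 bp in knockout and 1231 bp in wild-type cells, and Klrk1 3025 bp in knockout and 0 bp in wild-type cells. Klrc1 had 2154 bp in knockout and 0 bp in wild-type cells, and Fcer1g 2465 bp in knockout and 3313 bp in wild-type cells. Klra8 and Ncr1 were at 0 in both lists. The 6 B cell genes (of 10 listed) had a median of 0 bp and sums of 1408 bp in knockout cells, against 388 bp in wild-type cells. Ebf1 had 1326 bp in knockout cells, against 0 bp in wild-type cells, Fcrla had 82 bp in knockout and 388 bp in wild-type cells, and Bank1, Cd22, Cd79a and Pax5 were at 0 in both lists.

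Cells of the tumour bed were set beside these. The 6 epithelial genes (of 10 listed) had a median of 108.5 bp and sums of 8483 bp in knockout cells, against 6053 bp in wild-type cells, with 3 longer and 1 shorter. Cldn7 had 2042 bp in knockout and 378 bp in wild-type cells, Epcam 1711 bp in knockout and 803 bp in wild-type cells, Krt8 3311 bp in knockout and 3670 bp in wild-type cells and Krt18 1419 bp in knockout and 1202 bp in wild-type cells, and the basal keratins Krt5 and Krt14 were at 0 in both. The 4 fibroblast genes (of 8 listed) had a median of −343.5 bp and sums of 9081 bp in knockout cells, against 10401 bp in wild-type cells. The collagen gene Col3a1 had 3323 bp in knockout and 4236 bp in wild-type cells, Col1a2 416 bp in knockout and 136 bp in wild-type cells, Postn 555 bp in knockout and 1028 bp in wild-type cells and Pdgfra 4787 bp in knockout and 5001 bp in wild-type cells. The 6 endothelial genes (of 8 listed) had a median of 0 bp and sums of 2160 bp in knockout cells, against 2519 bp in wild-type cells. Kdr had 756 bp in knockout and 1033 bp in wild-type cells, Egfl7 had 1404 bp in knockout and 1486 bp in wild-type cells, and Cldn5, Emcn, Tek and Tie1 were at 0 in both lists. The lists do not say which cells gave a Schlafen region, and the part of these cell types in the Schlafen values was not tested.

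**Figure D5:**
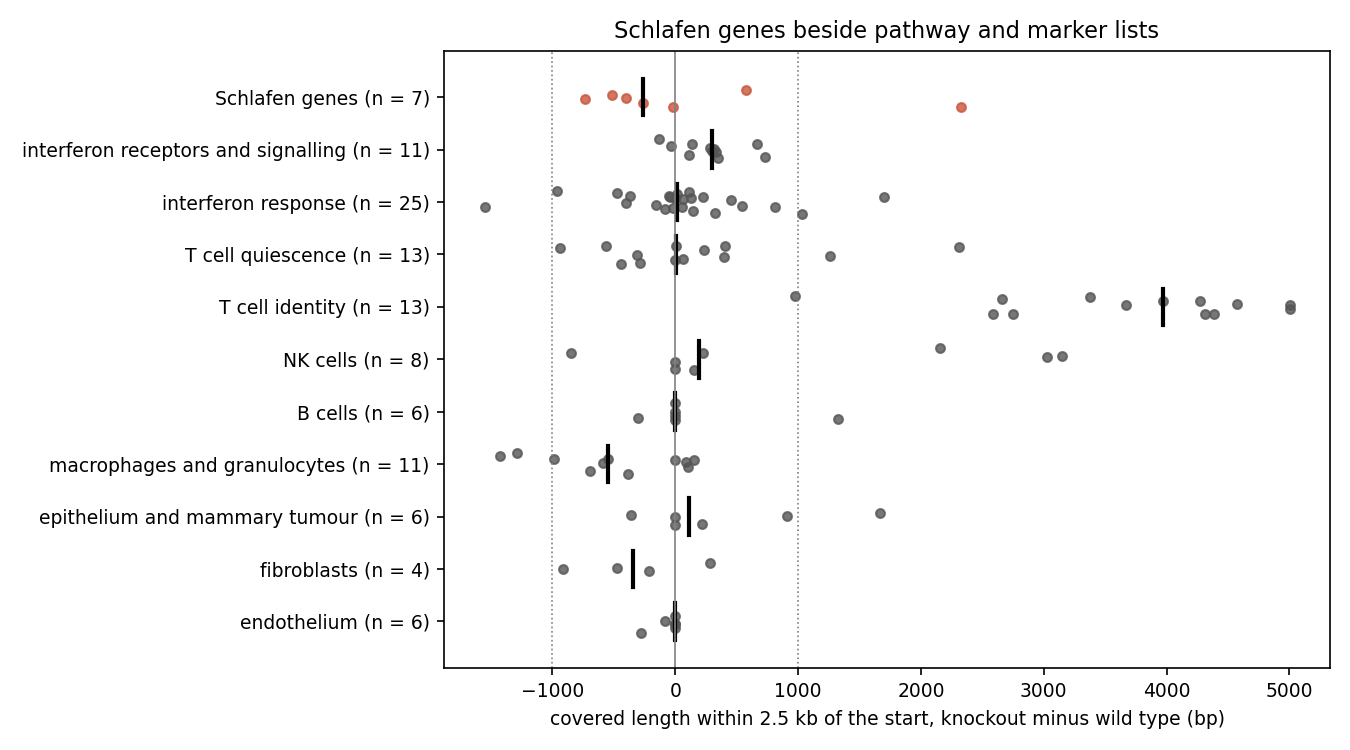
Difference in covered length within 2.5 kb of the start, knockout minus wild type in bp, on the x axis for the Schlafen genes (red) and each pathway or marker list (gray, 1 point per gene, black bars are medians, dotted lines are 1000 bp either way). The T cell identity genes center on 3968 bp, and the Schlafen genes spread from −735 bp at Slfn4 to 2329 bp at Slfn1. At most 5001 bp can be covered per start, so no Schlafen gene could reach that T cell median given its wild-type cover.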

How the data were processed

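H3K4me3 regions came from 1 library per genotype, 2 of the 6 samples of the series. Per the submitters' processing notes, MACS2 called regions on GRCm38 (mm10). No source used here names its version, its settings, the aligner or any use of the input. The deposited lists hold a fold ratio, −log10 p and −log10 q values, a score and a summit for each region, as the authors' caller wrote them. Library depth is unknown, and region length depends on it. Regions off the main chromosomes (64 knockout, 65 wild type) were left out.

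Gene bodies came from a RefSeq table (GRCm38.p6), and strands and starts from a RefSeq promoter table that held 17492 of 21887 protein-coding genes and all 7 members. Of several starts, the one with most covered bases over both lists was used. Each covered base counted once, and 1 bp of overlap made regions shared. The routine that counts covered bases was checked on simulated intervals. Tools were Python 3.11.15 with pandas 2.3.3, NumPy 2.4.6, Matplotlib 3.10.9 and Biopython 1.88 for promoter alignment.

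The members and lists were chosen with earlier results of these data known. Named are the members, other genes called Slfn, 4 coding neighbours a side (1 of them is not reported here), the 3 starts most like that of the member with the largest start difference, and up to 4 genes per list with the largest differences. Overlapping noncoding genes, genes at 0 and the motif ACTTCCTGG were chosen after values were seen. Alternatives were other windows, q limits, widths, list lengths and a stricter overlap.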

Additional observations from a re-analysis of the deposited data

How the results depend on the processing

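Covered length over the Schlafen windows was longer in the knockout list in all 7 other settings, from 5087 bp over the gene body alone and 5737 bp with 1 kb around it to 12468 bp with 20000 regions per list. The number of members longer in the knockout was 4 or 5 of 7 in each of them. Slfn1 stayed longer (1444 to 7681 bp), as did Slfn8 (3301 to 4678 bp) and Slfn2 (1057 to 5571 bp). The Slfn4 difference turned to 318 bp once regions under a −log10 q of 5 were left out, since an upstream knockout region passed that limit and 3 weak wild-type regions did not; around the start it became 444 bp there and 0 bp with a limit of 10. Within 1 kb of its start, Slfn9 had 200 bp more in knockout cells. Slfn3 and Slfn9 were shorter over their windows in every setting. Counts of regions depended on the setting. The knockout list had 9 regions over the gene body alone and 9 with 1 kb around it, and 7 with 20000 regions per list. The wild-type list had 8 when the limit on −log10 q was 10 and 5 with 20000 regions per list. Shared regions numbered 5 in each list with 20000 regions per list, and 7 of the wild-type regions when the limit on −log10 q was 10. The other 48 values for the family were within the limits set for a count or a sum, which are wide enough to hold the 12468 bp above. Of the values for single genes 42 moved further. The window difference ran from 294 to 1659 bp at Slfn5, −1100 to −263 bp at Slfn9, −543 to −126 bp at Slfn3 and −1152 to 318 bp at Slfn4. Around the start it ran from 1003 to 4505 bp at Slfn1, 33 to 577 bp at Slfn8, −512 to 0 bp at Slfn2 and −400 to 0 bp at Slfn3. No paired analysis was possible because each genotype had 1 library. Depth is unknown, and a region near the calling threshold in 1 list can be missed in the other.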
